A study of Mus musculus with 9 samples.

Results

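Collagen chains are the polypeptides that fold in threes into the triple helices of the extracellular matrix. The chains described here were chosen by symbol, as every gene of the deposited count table whose symbol is Col, a number, the letter a and a number. This gave 44 chains among 55401 genes, of which 31 were among the 15717 genes that passed a filter on low counts and could be tested.

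RNA sequencing was done on whole livers of 9 female mice, 3 in each of 3 groups. Healthy livers came from untreated mice. Untreated HCC came from mice given oncogene plasmids at 6 weeks of age through the tail vein by sleeping beauty hydrodynamic injection, which places them mainly in hepatocytes, to raise RAS/AKT-driven liver tumours, and then the AAV8 blank control vector 1 week later. miR-22-treated HCC came from mice given the same oncogenes and, at the same time, AAV8-miR-22, in which a CMV promoter drives the microRNA. All tumour-bearing livers were taken 5 weeks after the oncogenes and 4 weeks after the vector. The strain is FVB/N in the protocol and C57BL/6 in the strain label. The plasmids named for the series include an activated Nras, an activated AKT and an activated β-catenin, while the design text names RAS/AKT. Healthy mice received neither injection nor vector, so in every comparison with them the tumours, the injection and the vector cannot be told apart. Totals per liver were 16664659 to 23908392 counts. The groups differed in the counts at Akt1, an injected oncogene. Healthy livers had 2002 to 2105 normalised counts there, untreated HCC had 22700 to 32454 and treated livers had 13027 to 21424, and the part of this difference in the collagen results was not tested.

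Fibrillar collagens, such as types I, III and V, form the cable-like fibres that accumulate in liver fibrosis and are made mainly by activated hepatic stellate cells and portal fibroblasts. Type IV collagen forms the sheet of basement membranes, type VI makes beaded filaments, network-forming type VIII lies around vessels, and the FACIT chains decorate fibrils. Multiplexins bind basement membranes, and the endostatin precursor Col18a1 is known to be made by hepatocytes. In bulk RNA, fewer cells of a type and less RNA per cell cannot be told apart.

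The treatment was a microRNA, so the canonical 3′ UTRs of the chains were searched for its seed match. The mature strand is shown with its seed, bases 2 to 8, in capitals, followed by every match in a chain that passed the filter, with the match to the seed in capitals.

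miR-22-3p (RefSeq, GRCm38.p6, chr11:75463772-75463793, plus strand): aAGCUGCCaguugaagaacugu
Col5a1 (3′ UTR, GRCm39, match at chr2:27927636-27927642, plus strand): tgggggcagcgGGCAGCTgggacaagtca
Col4a2 (3′ UTR, GRCm39, match at chr8:11498335-11498341, plus strand): gccctgcccacGGCAGCTgtgtgggaagg
Col4a2 (3′ UTR, GRCm39, match at chr8:11499062-11499068, plus strand): aagaccctgacGGCAGCTggcacacagct
Col4a4 (3′ UTR, GRCm39, match at chr1:82426353-82426359, minus strand): taaatctccgtGGCAGCTtccaagaccat

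The match is the 7 letters GGCAGCT, read on the transcript strand. Of the 30 tested chains with a canonical 3′ UTR, 3 held it, a share of 10%, and 2287 of 13559 tested genes did, a share of 16.9%. Among the 12 chains that fell with miR-22, 2 held it, Col5a1 and Col4a2. Col1a1, Col1a2 and Col4a1 held none in their canonical 3′ UTRs. Shorter matches to the seed were not searched for. A match is a description of letters and not a binding site, and the median 3′ UTR was 1041 bases in the chains and 1339 bases over all tested genes.

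The make-up of the collagen message changed with the tumours. In healthy livers collagen counts took 0.137 to 0.152% of all counts, against 0.287 to 0.324% in untreated HCC and 0.201 to 0.235% with miR-22. To compare chains with each other, normalised counts were divided by the length of the canonical transcript in kilobases. On this per-length scale Col18a1 had the highest value in each of the 3 groups. It made up 72.0 to 76.6% of the collagen message in healthy livers, against 21.7 to 28.8% in untreated HCC and 33.8 to 45.5% with miR-22. Its annotated transcript carries no 3′ UTR, so its length is probably understated and its per-length level overstated. The same length was used for every liver, and a difference between livers in the transcript forms made was not tested. In untreated HCC Col18a1 had 1813 to 2370 normalised counts per kilobase and Col3a1 had 1314 to 1513, so their order there depends on that length.

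**Figure D1:**
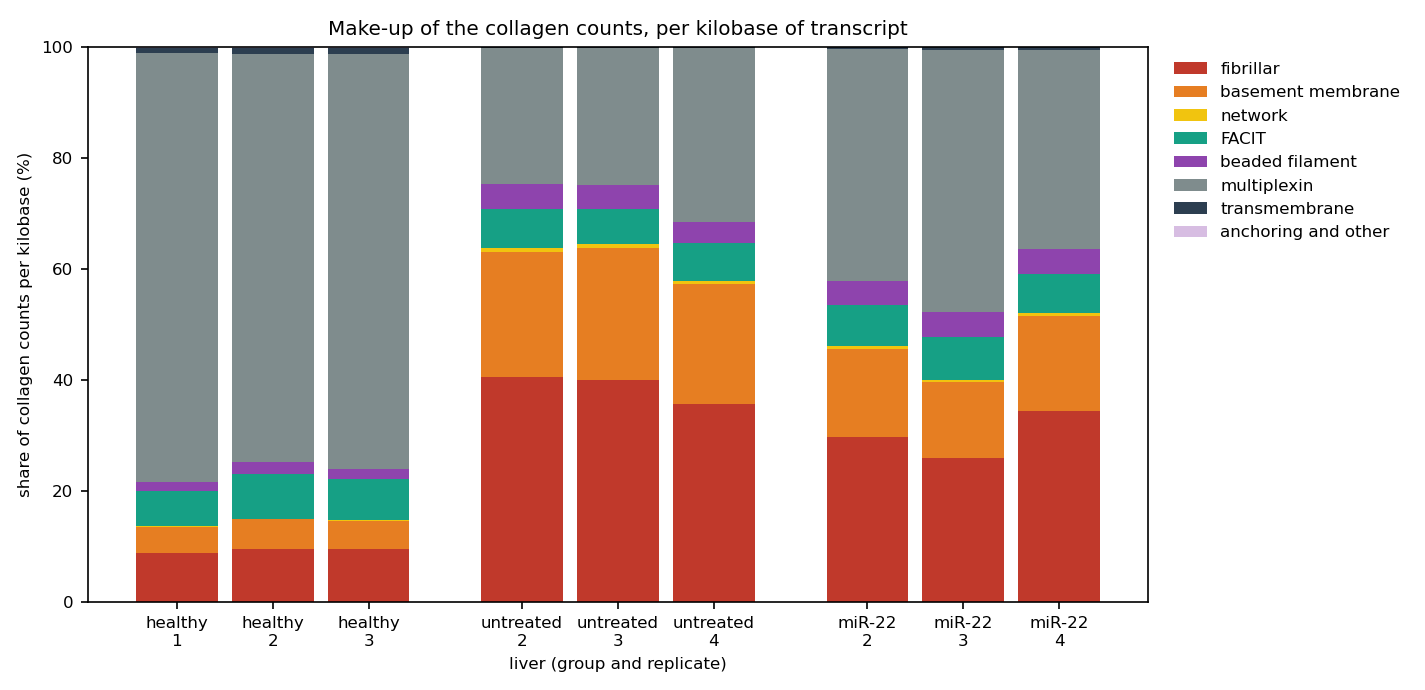
Stacked bars give the share of collagen counts per kilobase of transcript (%) held by each class of chain in each of the 9 livers, on an axis from 0 to 100. Multiplexins fill 73.6 to 77.4% of each healthy bar, and fibrillar plus basement membrane chains fill most of each untreated HCC bar.

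Behind Col18a1, the order of levels differed between groups. In healthy livers the next chains per kilobase were Col14a1, with a mean of 321 ± 35.4 (SD, n = 3), Col27a1, with 214 ± 3.54, and Col3a1, with 152 ± 10.3. In untreated HCC they were Col3a1, with 1405 ± 101, Col4a1, with 1203 ± 61.4, and Col1a2, with 723 ± 82.6. Col1a2 and the chain below it, Col1a1 at 630 ± 81.8, overlapped between livers. With miR-22 the order after Col18a1 was Col3a1, with 1040 ± 154, Col4a1, with 688 ± 108, and then Col1a2, at 436 ± 90.0, Col14a1, at 414 ± 39.5, Col4a2, at 375 ± 48.6, and Col1a1, at 327 ± 77.2, whose livers overlapped from each chain to the next. Fibrillar chains together held 8.75 to 9.57% of the per-length message in healthy livers, against 35.6 to 40.4% in untreated HCC and 25.9 to 34.4% with miR-22. For basement membrane chains the shares were 4.75 to 5.31%, 21.6 to 23.8% and 13.6 to 17.1%. These 2 classes therefore gained share in untreated HCC, and the 3 groups of livers did not overlap in either.

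A chain was called where the adjusted p was under 0.05 and the change was more than 1.5-fold, with p-values adjusted over all 15717 genes. Against healthy livers, 21 of the 31 tested chains were higher in untreated HCC and 4 were lower, while 22.7% of all tested genes were higher and 18.1% lower by the same rule. The median log2 fold change was 1.95 over the chains, also with Col11a1 at its lower bound, and 0.01 over all genes. With miR-22, 12 chains were lower than in untreated HCC and 1 was higher, against 5.47% and 8.32% of all genes. The median was -0.36 over the chains and 0.002 over all genes. In miR-22-treated HCC against healthy livers, 22 chains were higher and 3 lower, against 16.9% and 7.05% of all genes. The comparisons share livers and are given side by side.

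**Figure D2:**
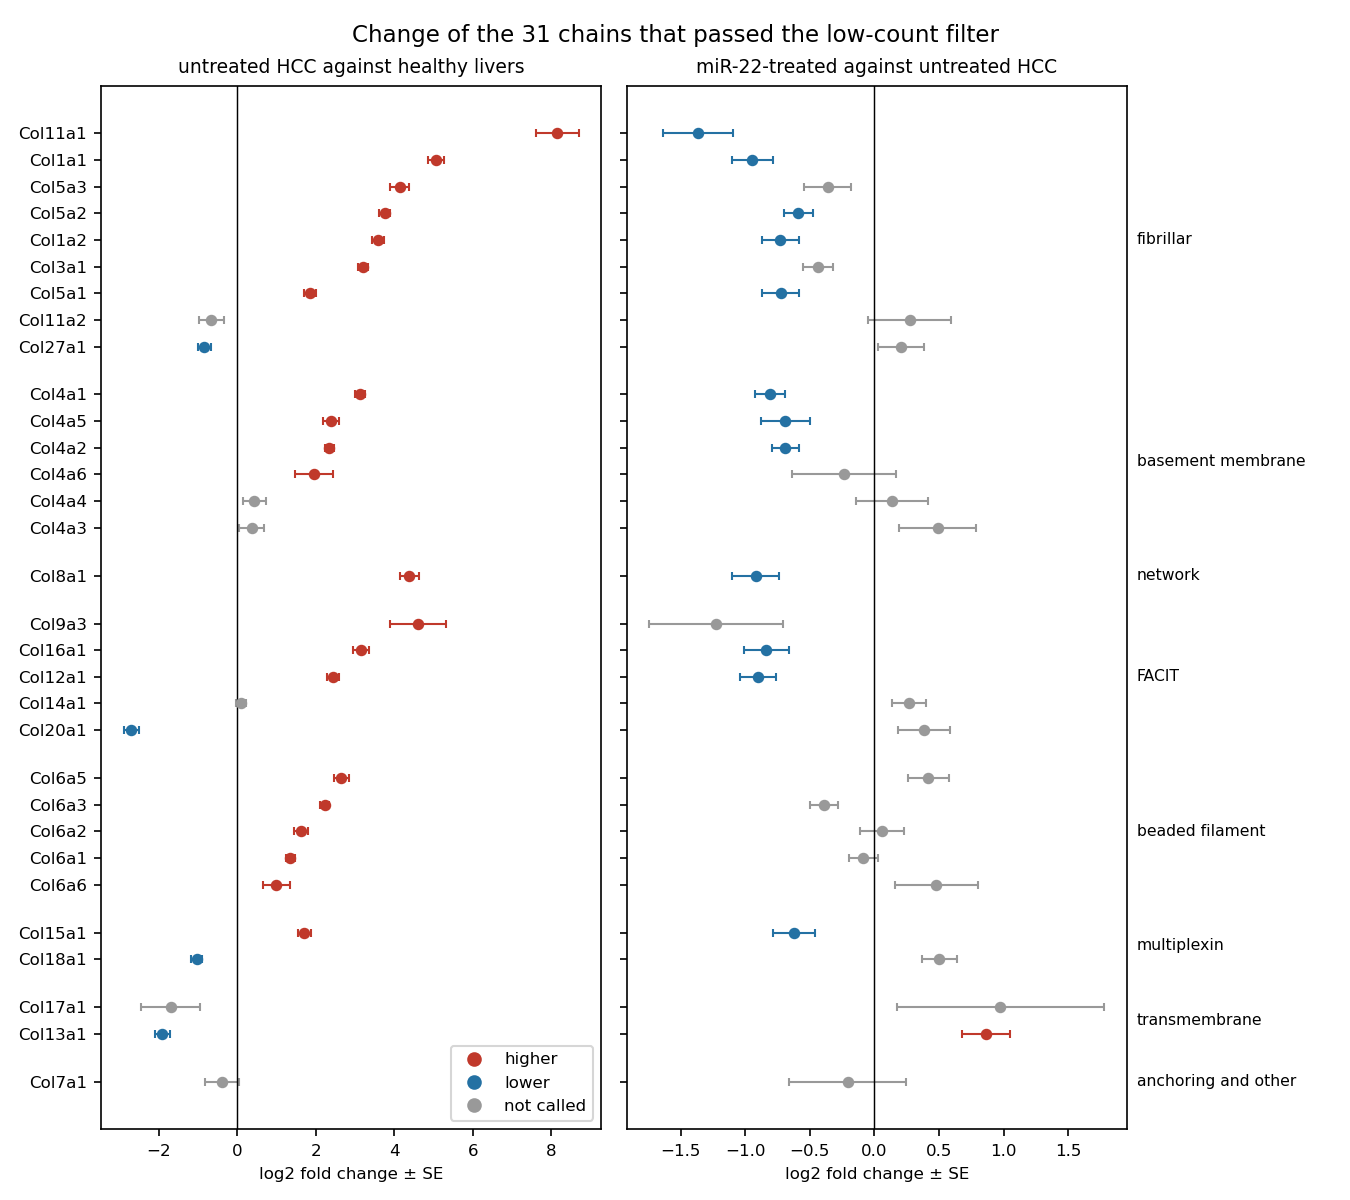
Points give the log2 fold change of each of the 31 tested chains, grouped by class, with bars of 1 standard error, for untreated HCC against healthy livers (left) and miR-22-treated against untreated HCC (right). Red points were called higher, blue points lower and grey points were not called, and each panel has its own axis. The 5 beaded filament chains are red on the left and grey on the right. The left point of Col11a1, almost without counts in healthy livers, depends on the prior count of the fit and is no measured fold.

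Type I and type III collagen chains, the bulk of scar fibres, rose strongly with the tumours. Col3a1, the type III chain, had normalised counts of 854, 901 and 787 in healthy livers, 8417, 7718 and 7311 in untreated HCC and 5584, 5050 and 6729 in miR-22-treated HCC. Col1a2, the α2 chain of type I collagen, had 345, 329 and 293 in healthy livers, 4008, 4235 and 3381 in untreated HCC and 2463, 1804 and 2744 with miR-22. Col1a1, the α1 chain of type I, had 116, 126 and 94.9, then 3858, 4145 and 3198, then 2096, 1423 and 2297. In all 3 chains the 3 groups were fully separated, with healthy livers lowest and untreated HCC highest. Col3a1 was 9.23-fold, Col1a2 12.02-fold and Col1a1 33.3-fold higher in untreated HCC than in healthy mice, with log2 fold changes of 3.21 ± 0.13, 3.59 ± 0.16 and 5.06 ± 0.20 (± SE). Col1a1 fell by 0.94 ± 0.16 on the log2 scale with miR-22 (adjusted p = 0.00159) and Col1a2 fell by 0.73 ± 0.14 (adjusted p = 0.00338). Col3a1 had a log2 fold change of -0.43 ± 0.12 (adjusted p = 0.0182), a 1.35-fold difference that was under the fold threshold. Without miR-22-treated replicate 3, the call of Col1a2 was lost at a log2 fold change of -0.57. It was also lost with the replicate number as a block, at -0.75.

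Types V and XI are the minor fibrillar collagens, which set fibril diameter. Col5a1 had 335, 244 and 324 in healthy livers, 1158, 1144 and 961 in untreated HCC and 792, 564 and 618 with miR-22. It was higher with the tumours by a log2 fold change of 1.85 ± 0.15 and fell by 0.72 ± 0.14 on the log2 scale with miR-22 (adjusted p = 0.00376). Col5a2, its usual partner, had 72.0, 72.1 and 82.1, then 1096, 1080 and 887, then 709, 598 and 726. It was 13.5-fold higher in untreated HCC. Its fall with miR-22, 0.59 ± 0.11 on the log2 scale (adjusted p = 0.00289), was 1.504-fold and so only just past the threshold, and it was lost without untreated replicate 2 or 3 or treated replicate 3. Col11a1, a chain best known from cartilage, was at 0, 0 and 1.07 normalised counts in healthy livers, at 142, 194 and 103 in untreated HCC and at 54.4, 50.7 and 63.7 with miR-22. Against a floor of 3 counts per library it was at least 41.7-fold higher in untreated HCC than in healthy livers. It fell by 1.37 ± 0.27 on the log2 scale with miR-22 (adjusted p = 0.00374), the largest fall among the chains called. Col5a3 rose 17.6-fold with the tumours, and its log2 fold change of -0.36 ± 0.18 with miR-22 did not pass the test (adjusted p = 0.179).

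Not every fibrillar chain rose. Col27a1, a short-helix fibrillar chain of cartilage and other tissues, had 1601, 1651 and 1644 normalised counts in healthy livers, 708, 1105 and 918 in untreated HCC and 876, 897 and 1371 with miR-22. It was lower in untreated HCC by a log2 fold change of -0.84 ± 0.18 (adjusted p = 0.00127), and untreated and treated livers overlapped. Its call against healthy livers in miR-22-treated HCC, -0.64 ± 0.18, was lost without treated replicate 2 or 3. Col11a2 had a log2 fold change of -0.66 ± 0.32 in untreated HCC and was not called (adjusted p = 0.0945), with healthy livers at 89.0 to 125 and untreated HCC at 48.2 to 81.2. It was called lower when only those 2 groups were fitted, at -0.65, and with no filter on low counts, at -0.65. With the replicate number as a block, which kept only livers with shared numbers, it was called lower at -0.94. In miR-22-treated HCC it was called lower than in healthy livers without treated replicate 4, at -0.88, and with that block, at -1.03. In all, 7 of 9 tested fibrillar chains were higher in untreated HCC and 1 was lower, and 5 of 9 were lower with miR-22.

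**Figure D3:**
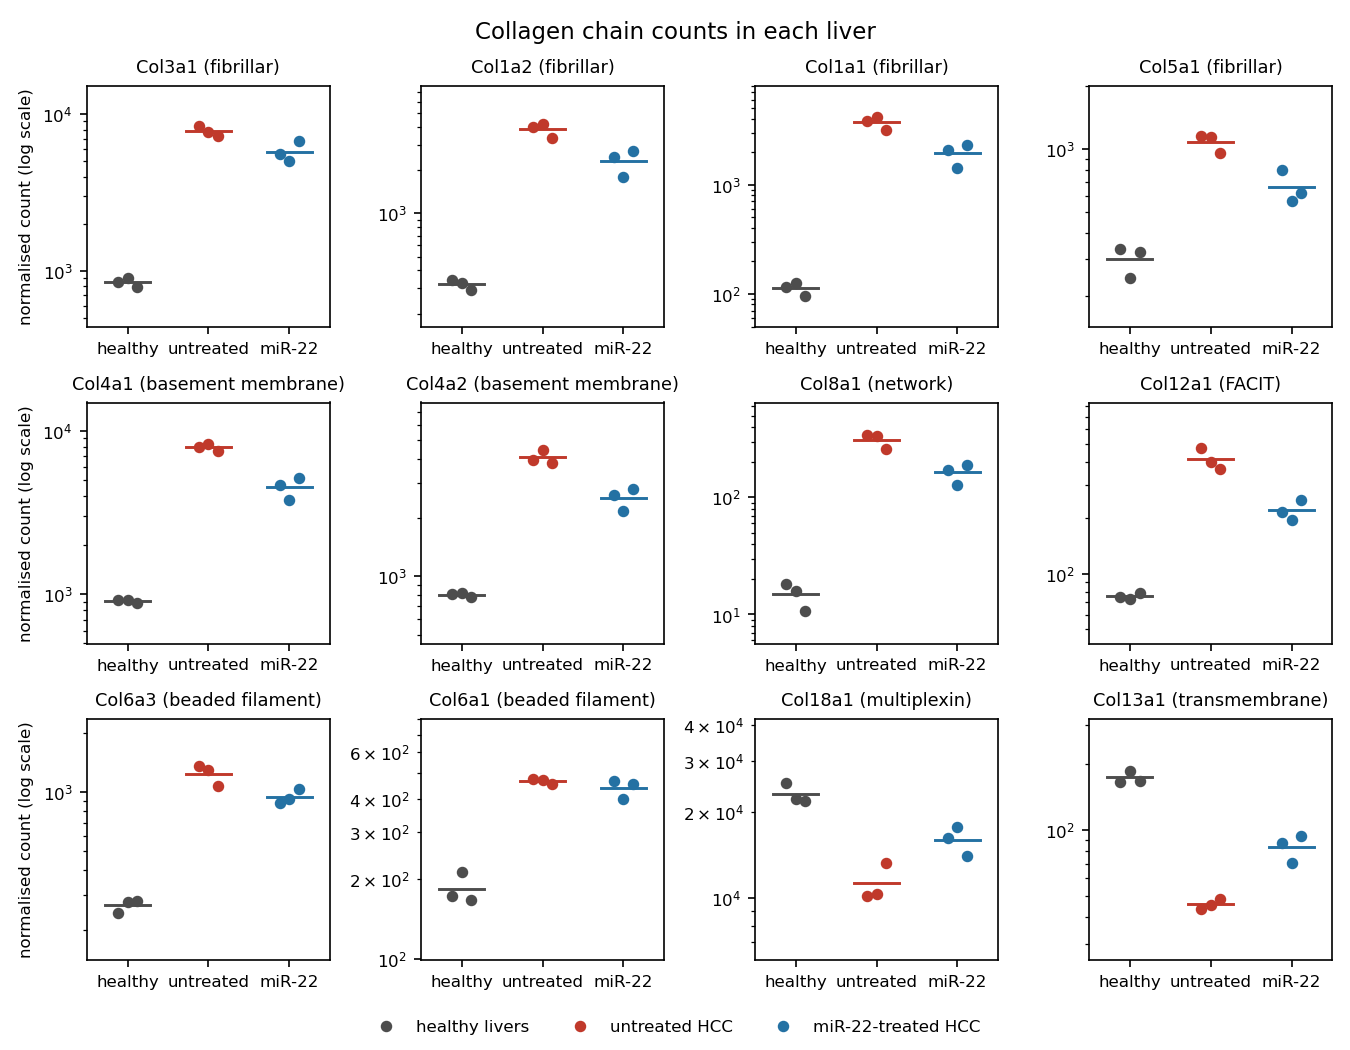
Each panel shows 1 chain, with points for the 9 livers, a line at the group mean and TMM-normalised counts on a log axis that differs between panels. In Col1a1 the 3 treated livers sit between 1423 and 2297, below the untreated and above the healthy livers, while in Col6a1 untreated and treated livers overlap and in Col18a1 the untreated livers are lowest.

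Col4a1 and Col4a2, which assemble as a unit in nearly all basement membranes, lie head to head on chromosome 8 and their annotated genes overlap by 356 bases. Col4a1 had 917, 922 and 889 normalised counts in healthy livers, 7982, 8347 and 7536 in untreated HCC and 4692, 3774 and 5185 with miR-22. Col4a2 had 811, 820 and 782, then 3950, 4486 and 3815, then 2603, 2175 and 2819. The groups were fully separated in both chains, and the healthy livers differed little among themselves. In untreated HCC Col4a1 was 8.75-fold and Col4a2 5.08-fold higher than in healthy livers. With miR-22 Col4a1 fell by 0.81 ± 0.11 on the log2 scale (adjusted p = 0.000672), the smallest adjusted p of any chain in this comparison, and Col4a2 fell by 0.69 ± 0.11 (adjusted p = 0.000963). Both falls were called in every alternative run.

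Col4a5 and Col4a6 form the X-linked pair, and Col4a3 and Col4a4 are best known from the kidney glomerulus. Col4a5 had 67.1, 111 and 79.9 normalised counts in healthy livers, 482, 523 and 351 in untreated HCC and 274, 235 and 329 with miR-22. It was 5.25-fold higher in untreated HCC and fell by 0.69 ± 0.19 with miR-22 on the log2 scale (adjusted p = 0.0196). That call was lost without untreated replicate 2 or 3, without treated replicate 2 or 3 and with the replicate number as a block. Col4a6 was low, at 2.44 to 8.56 in healthy livers and 16.7 to 25.2 in untreated HCC, and rose by 1.95 ± 0.48 on the log2 scale. With miR-22 its log2 fold change was -0.23 ± 0.41 and was not called (adjusted p = 0.72). Col4a3 and Col4a4 were not called in untreated HCC, at 0.36 ± 0.31 and 0.43 ± 0.29. Col4a3 was called higher in miR-22-treated HCC than in healthy livers, at 0.85 ± 0.31 (adjusted p = 0.0478), but those groups overlapped and the call was lost in 6 of 12 alternatives, among them leaving out healthy replicate 1 or 3 or treated replicate 2 or 3. The call of Col4a6 against healthy livers in miR-22-treated HCC was lost without healthy replicate 1 or 3.

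Of the 3 network-forming chains, Col8a1 alone passed the filter. Col8a1, which lies under vascular endothelium and in vessel walls, had 18.3, 15.9 and 10.7 normalised counts in healthy livers, 340, 334 and 258 in untreated HCC and 171, 129 and 191 with miR-22. It rose 20.8-fold with the tumours and fell by 0.92 ± 0.18 on the log2 scale with miR-22 (adjusted p = 0.00396). Its partner Col8a2 had raw counts of 0, 2 and 3 in healthy livers, 11, 7 and 17 in untreated HCC and 6, 8 and 10 with miR-22. Col10a1, the hypertrophic cartilage chain, had at most 10 counts in any liver.

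The FACIT chains, which sit on fibril surfaces and do not form fibrils themselves, went in different directions. Col14a1, the most abundant of them, had 1856, 2312 and 2051 in healthy livers, 2318, 1798 and 2531 in untreated HCC and 2767, 2863 and 2382 with miR-22. Its log2 fold change in untreated HCC was 0.10 ± 0.13, with a 95% interval of -0.19 to 0.38, and neither comparison was called. Col16a1 had 81.7, 78.2 and 65.0, then 736, 752 and 524, then 365, 293 and 463. Col12a1, a chain of dense and stressed connective tissue, had 74.4, 73.3 and 78.9, then 476, 399 and 365, then 215, 195 and 250.1.

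Col16a1 and Col12a1 thus had fully separated groups. They were 8.95-fold and 5.45-fold higher with the tumours, and with miR-22 they fell by 0.84 ± 0.17 (adjusted p = 0.00493) and 0.90 ± 0.14 (adjusted p = 0.000903) on the log2 scale. The fall of Col16a1 was not called with the replicate number as a block, at -0.85. Col20a1 ran the other way, with 285, 286 and 264 in healthy livers, 34.5, 50.4 and 42.8 in untreated HCC and 49.9, 66.8 and 50.8 with miR-22. It was 6.52-fold lower in untreated HCC (log2 fold change -2.70 ± 0.19), and its change with miR-22, 0.38 ± 0.20, was not called. Col9a3 rose by 4.598 ± 0.715 in untreated HCC from at most 9.59 normalised counts in healthy livers, and without healthy replicate 3, which had the most of them, by 5.38. Its untreated livers spread from 79.7 to 208 and its treated livers from 18.6 to 95.1, and the log2 fold change of -1.22 ± 0.52 with miR-22 was not called (adjusted p = 0.106). The call was made without treated replicate 4, at -1.85, and with no filter on low counts, at -1.23.

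All 5 tested chains of type VI collagen, the beaded filaments that link cells to the surrounding matrix, were higher in untreated HCC, and none was called with miR-22 by edgeR or DESeq2, with 1 higher and 1 lower at an unadjusted p under 0.05 in edgeR. Col6a3 had 243, 276 and 279 normalised counts in healthy livers, 1356, 1297 and 1083 in untreated HCC and 878, 928 and 1041 with miR-22. Col6a1 had 173, 213 and 166, then 476, 473 and 457, then 467, 402 and 455. Col6a2 had 92.7, 160 and 98.1, then 375, 389 and 312, then 375, 387 and 358. Col6a3 was lower in each treated than in each untreated liver, while Col6a1 and Col6a2 overlapped between those groups. The log2 fold changes in untreated HCC were 2.22 ± 0.11 for Col6a3, 1.35 ± 0.12 for Col6a1 and 1.62 ± 0.18 for Col6a2.

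With miR-22, Col6a3 differed by -0.39 ± 0.11 (adjusted p = 0.0188), which was 1.31-fold and under the threshold. The 95% interval of the log2 fold change with miR-22 was -0.33 to 0.16 for Col6a1 and -0.31 to 0.42 for Col6a2. Col6a5, a relative of Col6a3, had 38.4 to 54.9 normalised counts in healthy livers, against 249 to 365 in untreated HCC and 363 to 452 with miR-22, a difference of 0.42 ± 0.16 between the last groups that was not called (adjusted p = 0.0759). Col6a6 was 1.99-fold higher in untreated HCC, a call that was lost without healthy replicate 1 or 3 or untreated replicate 2 or 4. Whether the type VI chains differed from the type I or type IV chains in their change with miR-22 was not tested.

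The multiplexins moved in opposite directions. Col18a1, whose C-terminal fragment is endostatin, had 25140, 22096 and 21723 normalised counts in healthy livers, 10142, 10318 and 13260 in untreated HCC and 16151, 17688 and 13987 with miR-22. Every untreated liver was below every treated liver, and every treated liver was below every healthy liver. Col18a1 was 2.04-fold lower in untreated HCC (log2 fold change -1.03 ± 0.14, adjusted p = 4.25e-05). With miR-22 it was 1.42-fold higher (0.50 ± 0.14, adjusted p = 0.0198), under the fold threshold, and it passed the threshold without untreated replicate 4 or treated replicate 4, at 0.64 and 0.59. In miR-22-treated HCC it was 1.44-fold lower than in healthy livers (adjusted p = 0.0101), under the threshold, and was called without treated replicate 3, at -0.61. An exon of Slc19a1, a folate transporter, overlaps Col18a1 on the other strand, and the libraries carry no strand information.

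Col15a1, a vascular and perivascular basement membrane chain, had 287, 488 and 449 normalised counts in healthy livers, 1308, 1492 and 1194 in untreated HCC and 952, 756 and 883 with miR-22. It was 3.26-fold higher in untreated HCC and fell by 0.62 ± 0.16 on the log2 scale with miR-22 (adjusted p = 0.0149), a call that was lost without untreated replicate 3 or treated replicate 3.

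Among the membrane-spanning chains, Col13a1 was the only chain of all 31 called higher with miR-22. Col13a1, a component of cell adhesion sites, had 166, 186 and 167 normalised counts in healthy livers, 43.6, 45.2 and 48.6 in untreated HCC and 86.6, 70.5 and 93.2 with miR-22. The groups were fully separated, with treated livers in between. It was 3.76-fold lower in untreated HCC (log2 fold change -1.91 ± 0.18) and rose by 0.87 ± 0.19 with miR-22 (adjusted p = 0.00565), while it was still 2.06-fold lower than in healthy livers. The rise was not called by edgeR with the replicate number as a block (0.85, adjusted p = 0.0762). Col17a1, a hemidesmosome chain of epithelia, had 6.10, 14.7 and 18.1 in healthy livers, 5.46, 5.21 and 1.45 in untreated HCC and 5.55, 17.3 and 1.85 with miR-22, and was not called. Col7a1, which forms the anchoring fibrils of skin, had 19.5, 24.4 and 14.9, then 12.7, 23.5 and 8.70, then 9.99, 13.6 and 14.8, and was not called.

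The 13 chains that did not pass the filter had at most 17 counts in any liver. Their highest counts were 17 for Col8a2 and Col23a1, 14 for Col26a1, 11 for Col24a1, 10 for Col10a1, 9 for Col9a2 and Col25a1, 7 for Col28a1, 4 for Col22a1, 3 for Col2a1 and Col6a4, 2 for Col9a1 and 0 for Col19a1. Col26a1 had 14, 6 and 10 counts in healthy livers, none in untreated HCC and 4, 3 and 2 with miR-22. Against the floor of 3 counts per library it was at least 4.67-fold lower in untreated HCC. Col2a1, the main cartilage chain, had 3, 3 and 2 counts in untreated HCC and none in the other groups. In the edgeR fit without the filter, Col26a1 was called lower (adjusted p = 3.16e-05) and Col8a2 (adjusted p = 0.035) and Col9a2 (adjusted p = 0.0325) higher in untreated HCC, and Col26a1 higher with miR-22 (adjusted p = 0.0225).

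The ratio of 2 chains within a liver needs no scaling between libraries. Counts of Col1a1 over Col1a2 were 0.324 to 0.383 in healthy livers, against 0.946 to 0.979 in untreated HCC and 0.789 to 0.851 with miR-22. Type I collagen is usually built from a pair of α1 chains and an α2 chain. The ratio of Col4a1 to Col4a2 was 1.12 to 1.14, then 1.86 to 2.02, then 1.73 to 1.84. For Col5a1 over Col5a2 it was 3.39 to 4.66, then 1.06 to 1.08, then 0.851 to 1.12. Col3a1 over Col1a1 was 7.16 to 8.29, then 1.86 to 2.29, then 2.66 to 3.55.

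The healthy livers were apart from all tumour-bearing livers in each of these ratios. Untreated and treated livers were apart in Col1a1 over Col1a2, in Col4a1 over Col4a2 and in Col3a1 over Col1a1, and overlapped in Col5a1 over Col5a2. The ratio of Col6a1 to Col6a2 overlapped between healthy and untreated livers and between untreated and treated livers, at 1.33 to 1.87, 1.21 to 1.46 and 1.04 to 1.27. These ratios are of counts, not of molecules, and were not tested.

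**Figure D4:**
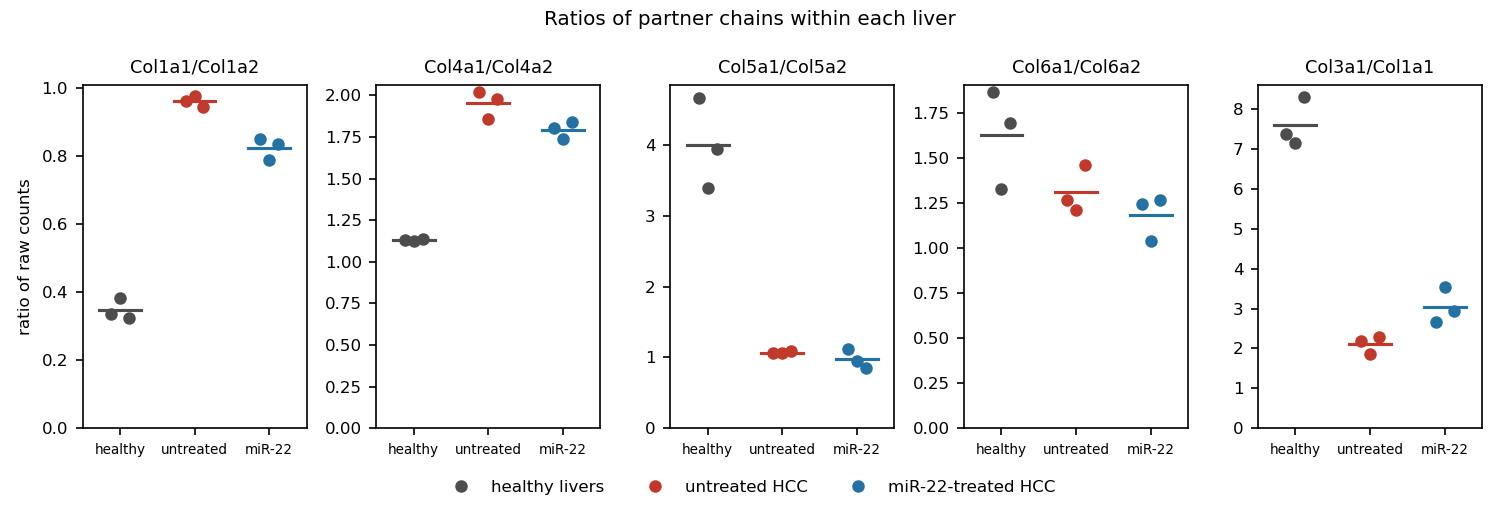
Points give the ratio of raw counts between chains within each liver, on linear axes that start at 0, with a line at the group mean. Col3a1 and Col1a1 belong to different collagen types and are not partners. For Col1a1 over Col1a2 the healthy livers sit between 0.324 and 0.383 and the untreated HCC livers between 0.946 and 0.979.

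Within a group the livers kept an order. In each of the 12 chains that fell with miR-22, treated replicate 3 had the lowest value of its group, and treated replicate 4 had the highest in 10. In untreated HCC, replicate 4 had the lowest value in all 12. The same libraries were at the ends for Akt1, with 13027 in treated replicate 3, 21424 in treated replicate 4 and 22700 in untreated replicate 4. For Nras, treated replicate 3 (1034) and untreated replicate 4 (1228) were also lowest of their groups. Treated replicates 2 (1073) and 4 (1069) hardly differed there. Leaving out treated replicate 3 left 9 chains called with miR-22, and leaving out treated replicate 4 left 15, while calls over all genes went from 2167 to 1433 and 2660. The part of the oncogene level in these differences was not tested.

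Collagen needs a dedicated set of enzymes and chaperones in the endoplasmic reticulum, and 13 of 19 tested genes of this list were higher in untreated HCC, while 1 was lower. For this and every gene list that follows, the shares called over all tested genes were 22.7% higher and 18.1% lower in untreated HCC, and 8.32% higher and 5.47% lower with miR-22. Plod2, the lysyl hydroxylase that prepares telopeptides for cross-linking, rose from 15.8 ± 4.58 normalised counts in healthy livers to 605 ± 239 (SD, n = 3), a log2 fold change of 5.27. With miR-22 it was at 232 ± 72.1 and fell by 1.37 on the log2 scale (adjusted p = 0.00552). Serpinh1, the collagen chaperone HSP47, rose by 2.14 and Fkbp10, a prolyl isomerase, by 2.24. With miR-22, 2 genes of the list were lower, Plod2 and Fkbp10, and 1 was higher, Colgalt2, a collagen galactosyltransferase. Colgalt2 was lower in untreated HCC by 2.99 on the log2 scale and rose by 1.22 with miR-22. P3h1, a prolyl 3-hydroxylase, differed by -0.33 with miR-22 (adjusted p = 0.0251), under the fold threshold. Of 10 tested genes for the export of large cargo, none was called higher in untreated HCC by edgeR or DESeq2 and 3 were lower. At an unadjusted p under 0.05 in edgeR, 1 was higher, the COPII coat gene Sec13, which differed by 0.40 (adjusted p = 0.00335), under the fold threshold, and which was named after its values were seen. The 3 that were lower had log2 fold changes of -0.82 for the COPII GTPase Sar1b, -0.60 for the cargo receptor Mia3 (TANGO1) and -0.64 for its relative Mia2. None was called with miR-22 by either tool, and 3 were higher and 2 lower at an unadjusted p under 0.05 in edgeR. The differences with miR-22 were 0.56 for Sar1b (adjusted p = 0.00221), 0.42 for Mia3 (adjusted p = 0.00599) and 0.49 for Mia2 (adjusted p = 0.0088), and -0.32 for the COPII coat gene Sec31a (adjusted p = 0.0157), each under the fold threshold.

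Outside the cell, procollagen is trimmed and cross-linked. Of 5 tested propeptide processing genes, 2 were higher in untreated HCC, the N-proteinase Adamts2 by 2.30 and the C-proteinase enhancer Pcolce by 1.31 on the log2 scale. Adamts14 had a log2 fold change of 0.55 and Bmp1, the C-proteinase, one of -0.22, and neither was called. No gene of this list was called with miR-22 by edgeR or DESeq2, and 2 were lower at an unadjusted p under 0.05 in edgeR. All 6 cross-linking genes were higher in untreated HCC. Lox, lysyl oxidase, rose by 5.34, Loxl2 by 2.98 and the transglutaminase Tgm2 by 2.09. With miR-22, 2 of the 6 were called lower by edgeR and 4 by DESeq2. Lox fell by 0.99 (adjusted p = 0.00767) and Loxl2 by 0.76 (adjusted p = 0.00561), and Tgm2 differed by -0.56 (adjusted p = 0.00287), under the fold threshold. Loxl4, named after its values were seen, differed by -1.18 and was not called by edgeR (adjusted p = 0.0562).

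Partners in fibrils and basement membranes were mostly higher in untreated HCC. Of 17 tested fibril partners, 12 were higher and 3 lower, and with miR-22 5 were lower and 3 higher. Thbs1, thrombospondin 1, rose by 5.86 and fell by 1.47 with miR-22 (adjusted p = 0.000595). Sparc, a collagen-binding matricellular protein, rose by 3.33 and Fbn1, fibrillin 1, by 3.12. The small leucine-rich proteoglycan Ogn was at 49.5 ± 5.86 normalised counts in healthy livers, 22.8 ± 2.45 in untreated HCC and 59.6 ± 1.28 with miR-22, and Prelp differed by -0.58 with miR-22, under the fold threshold. Besides Ogn, Dcn (decorin) and Tnxb were lower in untreated HCC and higher with miR-22; these were named after their values were seen. Of 17 tested basement membrane partners, 12 were higher and none lower in untreated HCC, and 6 were lower with miR-22. Nid1, nidogen 1, which bridges type IV collagen and laminin, rose by 3.05 and fell by 0.65 (adjusted p = 0.00165). Among laminin chains, Lama5 rose by 2.28 and Lamc1 by 1.26, and with miR-22 Lamc1 differed by -0.58, just under the fold threshold.

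Of 10 tested genes of collagenases, their inhibitors and collagen uptake, 9 were higher in untreated HCC, among them the uptake receptor Mrc2 by 2.77 on the log2 scale. The inhibitor Timp1 and the collagenase Mmp13 had at most 3 counts in each healthy liver, and against that floor per library they were at least 44.8-fold and 16.5-fold higher. With miR-22, 2 were lower, Mmp14 by 0.85 (adjusted p = 0.000562) and Timp1 by 1.26 (adjusted p = 0.00328), and Timp2 differed by -0.37. Of 11 tested collagen receptors, 6 were higher in untreated HCC and 5 were not called, and 2 were lower with miR-22. Ddr1, an epithelial collagen-binding kinase, rose from 42.0 ± 3.76 to 1033 ± 248 and was at 477 ± 121 with miR-22, a fall of 1.11 on the log2 scale (adjusted p = 0.00162). Adgrg1 rose by 2.24 and fell by 0.69. Among 16 fibrogenic ligands and feedback genes, 11 were higher and 2 lower in untreated HCC, and 7 were lower with miR-22. Ccn2 rose by 5.56 and Pdgfc by 2.88, and with miR-22 Ccn1 fell by 0.97 and Pdgfb by 0.95.

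**Figure D5:**
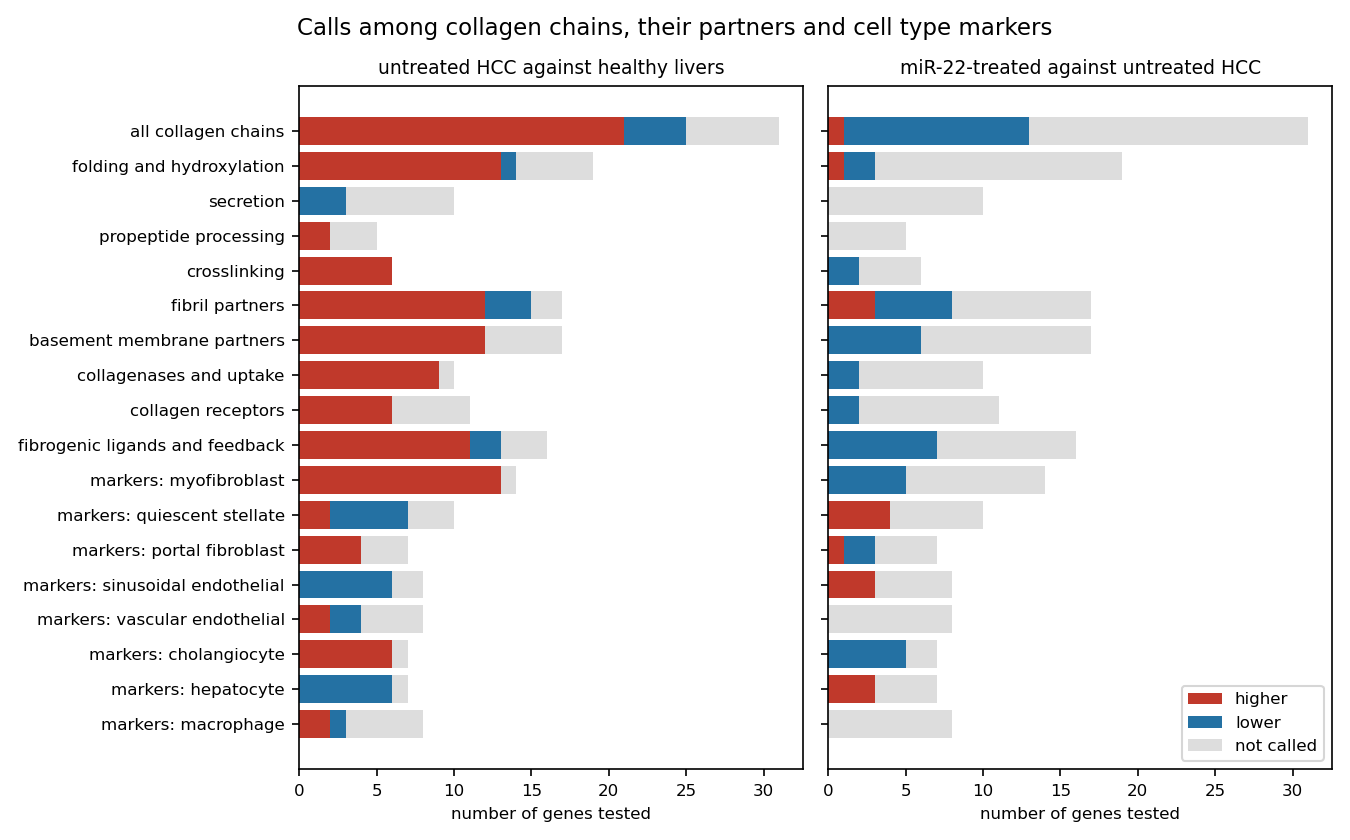
Bars give the number of tested genes called higher (red), lower (blue) or not called (grey) in each list, for untreated HCC against healthy livers (left) and miR-22-treated against untreated HCC (right). All 6 cross-linking genes are red on the left, and none of the 10 secretion genes is red in either panel.

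Of 14 myofibroblast markers, 13 were higher in untreated HCC and 5 were lower with miR-22, and 8 of the 14 also stand in the matrix lists above. Their summed normalised counts without Spp1, which otherwise fills the sum, were 1165 to 1320 in healthy livers, against 5551 to 6716 in untreated HCC and 4073 to 5437 with miR-22. Acta2, smooth muscle actin, named after its values were seen, was at 55.5 ± 10.3, 377 ± 62.9 and 252 ± 69.9, and its log2 fold change with miR-22 was -0.57 (adjusted p = 0.0487), under the fold threshold. Vim rose by 3.11 in untreated HCC and fell by 0.73 with miR-22. Of 10 markers of quiescent stellate cells, 2 were higher and 5 lower in untreated HCC, and 4 were higher with miR-22. Their summed counts overlapped among the groups, at 7685 to 9082, 7413 to 9297 and 7426 to 8485. Ecm1 had a log2 fold change of -1.90 in untreated HCC and rose by 0.76 with miR-22, and Hand2 rose by 1.00 and Colec10 by 0.91. The other 6 were not called with miR-22. At an unadjusted p under 0.05, 3 of these were lower, Rgs5 at -0.53, Pdgfrb at -0.43 and Reln at -0.34, and 1 was higher, Des at 0.53. DESeq2 called 3 markers of this list higher.

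Of 7 tested portal fibroblast markers, 4 were higher in untreated HCC, and with miR-22 2 were lower (Fbln2 and Eln) and 1 was higher (Dpt), with sums of 279.9 to 357, 974 to 1090 and 704 to 975.5. Of 7 cholangiocyte markers, 6 were higher in untreated HCC and 5 were lower with miR-22, with sums without Spp1 of 487 to 556, 2547 to 4375 and 1182 to 1890. Sox9, which is also raised in liver tumour cells, rose by 4.84 and fell by 1.57. Of 7 hepatocyte markers, 6 were lower in untreated HCC and 3 were higher with miR-22, and they took 11.1 to 11.5%, 6.63 to 7.53% and 8.22 to 9.16% of all counts.

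Of 8 sinusoidal endothelial markers, 6 were lower in untreated HCC and 3 were higher with miR-22, with sums of 8579 to 10714, 4937 to 6431 and 7099 to 8642. Of 8 vascular endothelial markers, 2 were higher and 2 lower in untreated HCC, with sums of 4353 to 5179, 3951 to 4463 and 4247 to 5190. Of 8 macrophage markers, 2 were higher and 1 lower in untreated HCC, with sums of 6427 to 8167, 6191 to 7250 and 7648 to 8051. In both lists these counts are few and near the shares over all genes, and the sums of healthy and untreated livers overlapped. Neither of these 2 lists had a gene called with miR-22 by edgeR or DESeq2, and at an unadjusted p under 0.05 in edgeR 1 vascular and 2 macrophage markers were higher. The portal fibroblast marker Gli1 failed the filter, with at most 8 counts. The part of these cell types in the collagen results was not tested.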

How the data were processed

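Salmon estimated gene counts, summarised with tximport, were deposited by the authors as whole counts per gene for whole-liver RNA made with a non-directional kit and read as paired ends of 150 bases; the submitters' processing notes also name FastQC 0.11.7, DESeq2 1.18 and the build GRCm39. A second deposited table of normalised values was not used. Estimated counts of overlapping or similar genes depend on how Salmon shared reads, and 20 of the 31 tested chains have an exon overlapped by another annotated gene.

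All 9 livers were fitted together with edgeR 4.0.16 (R 4.3.3) by its quasi-likelihood test, after filterByExpr and TMM scaling, with Benjamini-Hochberg adjustment over 15717 genes and calls at an adjusted p of 0.05 and 1.5-fold. Normalised counts are counts scaled to the mean effective library size. The number of livers, 3 per group, limits precision. Nothing in the labels says whether livers of a group came from separate litters or days. The p-values rest on the spread between these livers within the 3 groups, which the fit estimated with information shared across genes. Replicate libraries differed by more than sampling noise. The test was first run on counts simulated from the kind of model it assumes, with few genes changed. That check does not cover changes in many genes, such as those called here. Alternatives were DESeq2 1.42.0, other scalings, no filter, no fold threshold, 2-group fits, a replicate block and leaving out each liver. Positions and 3′ UTRs are from GENCODE M39 on GRCm39, and figures were drawn with matplotlib 3.10.9.

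The chains and gene lists were chosen with earlier results of these data known. Every tested chain is named or counted in its class, with the value in each liver for the 3 highest of each class, for chains called with miR-22 and for chains lower in HCC. From other lists, up to 3 genes with the smallest p in each comparison are named, except that some are not reported here.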

Additional observations from a re-analysis of the deposited data

How the results depend on the processing

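The number of chains called was 24 to 29 in untreated HCC against healthy livers over the alternatives run (25 as reported), 9 to 16 with miR-22 (13 as reported) and 23 to 27 in miR-22-treated HCC against healthy livers (25 as reported). Leaving out 1 liver gave 24 to 26, 9 to 15 and 23 to 26, with the lowest count with miR-22, 9, without treated replicate 3, where calls over all genes fell from 2167 to 1433. With miR-22 they ranged from 1433 to 2660 when 1 liver was left out. Another scaling moved none of these counts by more than 1. The labels do not say whether the replicate numbers pair the livers. Same-numbered untreated and treated livers had deviations from their group means that correlated at -0.121, -0.131 and -0.235 over genes. For livers with different numbers the correlations were -0.0136 to 0.131. With 3 livers per group these correlations depend on each other, so they cannot show whether the livers were paired. With a replicate block, 9 chains were called with miR-22, all lower, and the calls of Col13a1 (0.85), Col16a1 (-0.85), Col1a2 (-0.75) and Col4a5 (-0.69) were lost, while over all genes the calls went from 2167 to 958. The block against healthy livers kept only livers with shared numbers, and 25 chains were called in each comparison, with Col11a2 gained in both (-0.94 in untreated and -1.03 in miR-22-treated HCC), Col6a6 lost in untreated HCC (0.70) and Col4a6 lost in miR-22-treated HCC (1.51). Chains whose direction turned were not called as reported. Col14a1 in untreated HCC was at -0.084 with the block, and at -0.011 to 0.23 leaving out 1 liver. With miR-22, leaving out 1 liver gave log2 fold changes of -0.22 to 0.52 for Col11a2, -0.13 to 1.49 for Col17a1, -0.039 to 0.36 for Col27a1, -0.051 to 0.37 for Col4a4, -0.034 to 0.12 for Col6a2 and -0.49 to 0.27 for Col7a1. The cause was not tested. Depth limits the chains with few counts, such as Col17a1, Col7a1 and Col4a6, and those that failed the filter.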
